A study of Mus musculus with 12 samples.

Results

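Alpha granule genes were examined in PreMegEs, bone marrow progenitors that give rise to the megakaryocyte and erythroid lineages. The 9 genes were chosen by name for their role in the alpha granule and make up 9 of the 41128 genes of the count table. They are Pf4, Ppbp, Vwf, Selp, Thbs1, F5, F13a1, Mmrn1 and Nbeal2.

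Alpha granules are the most abundant secretory granules of platelets and are formed in megakaryocytes, the cells that release platelets into the blood. They store chemokines, adhesive proteins and clotting factors, and carry membrane proteins that reach the platelet surface when the granule is released. Genes of these proteins are widely used as signs of commitment to the megakaryocyte lineage, although several of them are also transcribed in endothelial cells or macrophages.

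PreMegEs for RNA-Seq were sorted from the adult bone marrow of C57BL/6 mice aged 12 to 16 weeks, in 4 groups of 3 libraries, and each library held cells of 3 mice. WT PreMegEs came from wild type mice. P2- and P2+ PreMegEs both came from mice of the genotype Runx1 P1-GFP::P2-hCD4/+, in which 1 Runx1 allele carries GFP as a reporter of the distal promoter P1 and human CD4 as a reporter of the proximal promoter P2, and were separated by the hCD4 signal. KO PreMegEs came from RUNX1C knockout mice, which lack the protein made from P1. The sort therefore split reporter cells by P2 activity, whereas WT and KO cells were not split. The paper describes RNA-Seq of WT, P2- and P2+ PreMegEs and not of KO PreMegEs. Whether the KO libraries were sorted and sequenced together with the others is not known here. A difference between KO and another group therefore cannot be told apart from one of handling. A lower level in a bulk library may come from fewer cells of one kind or from less RNA in each cell, and these cannot be told apart.

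Levels are given as CPM, counts relative to library size after scaling library sizes by the TMM method, and levels of different genes are compared only as RPKM, which also divides by the exonic length. A gene was called changed when the quasi-likelihood test of edgeR gave an adjusted p under 0.05, with Benjamini-Hochberg adjustment over all genes tested, and the fold change was at least 2. Library totals lay between 10726098 and 14445026 counts, so that 3 counts, the limit that a count of 0 allows, corresponded to between 0.208 and 0.286 CPM and covers counting error only. Replicate 2 of P2- and replicate 2 of P2+ stood apart by the summed level of 10 immediate early genes, at 12300 and 8280 CPM, against between 153 and 1160 CPM in the other 10 libraries. Of the genes that define the sort, Slamf1, which encodes CD150, was read in every library at between 34.1 and 65.5 CPM, and Fcgr3, which encodes CD16, reached at most 2.01 CPM. Itga2b, which encodes the CD41 that the gate takes as negative, lay between 38.6 and 320 CPM. Eng, which encodes the Endoglin that the gate also takes as negative, lay between 93.9 and 152 CPM.

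Pf4 and Ppbp encode the chemokines platelet factor 4 and pro-platelet basic protein, and lie head to tail on the plus strand of chromosome 5 of GRCm38. Ppbp runs from 90768518 to 90770063 and Pf4 from 90772435 to 90773383, with 2371 bases between them. Selp and F5 form a similar pair on the plus strand of chromosome 1, from 164115264 to 164150026 and from 164151838 to 164220277, 1811 bases apart. The 250 bases before the start of each of these 4 genes are shown because the members of a pair share a neighbourhood, so that their promoters can be read beside their levels. The sequences were taken from RefSeq on GRCm38.p6, with the motif matches named after them in capitals.
Pf4, chr5:90772185-90772434, plus strand: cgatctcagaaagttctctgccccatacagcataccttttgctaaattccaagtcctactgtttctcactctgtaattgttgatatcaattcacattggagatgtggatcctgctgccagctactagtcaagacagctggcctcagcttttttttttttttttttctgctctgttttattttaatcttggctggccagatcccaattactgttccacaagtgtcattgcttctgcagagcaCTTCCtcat
Ppbp, chr5:90768268-90768517, plus strand: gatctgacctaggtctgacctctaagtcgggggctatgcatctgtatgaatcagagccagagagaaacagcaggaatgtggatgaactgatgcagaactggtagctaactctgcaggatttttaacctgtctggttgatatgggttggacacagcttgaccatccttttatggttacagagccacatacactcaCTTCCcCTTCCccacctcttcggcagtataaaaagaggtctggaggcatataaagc
Selp, chr1:164115014-164115263, plus strand: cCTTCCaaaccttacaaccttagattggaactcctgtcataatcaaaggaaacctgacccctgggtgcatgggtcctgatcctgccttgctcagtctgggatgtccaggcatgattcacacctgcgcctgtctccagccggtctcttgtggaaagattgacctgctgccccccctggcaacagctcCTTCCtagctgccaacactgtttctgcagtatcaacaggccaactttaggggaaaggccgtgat
F5, chr1:164151585-164151834, plus strand: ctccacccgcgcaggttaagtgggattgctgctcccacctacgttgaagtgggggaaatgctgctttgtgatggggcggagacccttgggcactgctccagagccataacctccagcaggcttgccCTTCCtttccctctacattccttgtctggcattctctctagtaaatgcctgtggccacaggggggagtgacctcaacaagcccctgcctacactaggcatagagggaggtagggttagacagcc

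Windows of 300 bases, the 250 bases before the start and the first 50 of the transcript, were searched on both strands for GATAA, the core letters bound by GATA factors, TGTGGT, bound by RUNX factors, and GGAAG, found in sites of Ets factors. Entries were found for 7 of the 9 genes, and none for Vwf or Thbs1. These 7 genes have 8 windows, since F13a1 has an entry for each of 2 starts. GATAA was present in 4 of the 8 windows, among them 1 of those of F13a1, and in 25.4% of 32851 promoter windows. TGTGGT was found in 1 of the 8, that of F5, where it began at position 1 on the opposite strand, and in 16.8% of all windows. GGAAG occurred in 8 of 8 and in 71.4% of all windows. All matches printed in capitals above are GGAAG read on the opposite strand, at -9 in Pf4, at -56 and -50 in Ppbp, at -249 and -64 in Selp and at -124 in F5, counted from the start to the leftmost base. No match overlapped another. Pf4 held a GATAA at position 38, past the stretch shown, and Ppbp held none in its window. A match is a description of the letters and not of binding.

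Of the 8 alpha granule genes that could be tested, Pf4 differed by the most between P2- and P2+ cells. In P2- PreMegEs Pf4 was read at 3.58, 3.05 and 6.11 CPM in replicates 1, 2 and 3, and in P2+ PreMegEs at 58.6, 56.3 and 101 CPM. In WT PreMegEs the values were 65.8, 80.6 and 74.5 CPM, and in KO PreMegEs 17.7, 18.3 and 14.2 CPM. Thus WT and P2+ libraries overlapped at the top, all KO libraries lay below them, and all P2- libraries lay lowest. Mean levels were 73.6 ± 7.44 CPM in WT, 4.25 ± 1.64 in P2-, 72.0 ± 25.2 in P2+ and 16.7 ± 2.23 in KO (SD, n = 3 libraries each).

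Ppbp, the chemokine gene next to Pf4, followed another order. Its level in KO PreMegEs was 21.0, 11.1 and 15.4 CPM, in WT 8.61, 12.1 and 8.54 CPM and in P2+ 3.68, 4.51 and 3.81 CPM. In P2- PreMegEs Ppbp varied widely, with 187 counts (14.9 CPM) in replicate 1, 0 counts in replicate 2 and 50 counts (3.51 CPM) in replicate 3. The replicate with 0 counts, which allows up to 0.286 CPM, is the P2- library with the high immediate early sum. The P2+ libraries were therefore lower than every WT and KO library, and the P2- libraries overlapped those of every other group.

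Vwf encodes von Willebrand factor, which tethers platelets to the injured vessel wall. It was read at 13.7, 13.4 and 19.1 CPM in P2-, at 27.8, 40.3 and 27.9 in KO, at 49.9, 65.5 and 65.5 in WT and at 59.1, 57.3 and 120 CPM in P2+ PreMegEs. The P2- and KO libraries each formed a step of their own, and WT overlapped P2+. Vwf is also an endothelial gene. The summed level of 10 endothelial genes ranged from 100 to 120 CPM in P2-, 136 to 156 in KO, 193 to 209 in WT and 267 to 327 in P2+ PreMegEs, in the same order as the Vwf means. Between P2+ and P2- PreMegEs 6 of the 8 endothelial genes tested rose, against 9.54% of all genes tested, among them Tie1 (67 against 9.12 CPM), Esam (41.8 against 5.61) and Tek (63.3 against 24.1). Cdh5 and Cldn5 reached at most 0.625 and 0.305 CPM in any library. The part of endothelial RNA in the Vwf level was not tested.

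Selp encodes P-selectin, the granule membrane protein that binds leukocytes after release. Its values were 1.35, 1.53 and 4.50 CPM in P2-, 2.79, 5.65 and 3.91 in KO, 17.0, 11.8 and 9.41 in WT and 20.2, 19.2 and 33.2 in P2+ PreMegEs. KO and P2- libraries overlapped at the bottom, and every P2+ library was above every WT library. F5, the neighbouring gene of coagulation factor V, was read at 4.45, 2.86 and 4.0 CPM in P2-, 9.25, 6.51 and 10.2 in KO, 8.05, 13.1 and 12.0 in WT and 23.1, 19.0 and 36.0 in P2+ PreMegEs. For F5 it was KO and WT that overlapped, with P2- below and P2+ above both.

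Thbs1, which encodes the adhesive protein thrombospondin 1, gave 9.94, 1.24 and 6.39 CPM in P2-, 22.2, 19.3 and 19.2 in KO, 19.0, 19.9 and 20.6 in WT and 17.0, 17.7 and 48.7 CPM in P2+ PreMegEs. The WT, KO and first 2 P2+ libraries lay together, replicate 3 of P2+ lay far above them, and all P2- libraries lay below. Nbeal2, a BEACH domain protein required to form alpha granules and not itself a cargo, varied little between replicates. It was read at 66.8, 62.4 and 63.3 CPM in P2-, at 105, 97.8 and 96.0 in KO, at 115, 105 and 102 in WT and at 139, 127 and 144 in P2+ PreMegEs. Here P2- lay lowest and P2+ highest without overlap, and KO overlapped WT.

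F13a1, the gene of the A subunit of coagulation factor XIII, which cross-links fibrin, was highest in replicate 1 of every group. Its values were 4.37, 1.81 and 1.83 CPM in P2-, 13.3, 5.74 and 4.19 in KO, 35.8, 6.53 and 6.64 in WT and 37.9, 6.87 and 10.6 in P2+ PreMegEs. Replicate 1 exceeded the mean of the other replicates of its group by 5.44 times in WT, 4.34 times in P2+, 2.67 times in KO and 2.40 times in P2-. F13a1 is also a monocyte and macrophage gene. The summed level of 10 neutrophil and monocyte genes in replicate 1, against the higher of the other replicates, was 304 against 192 CPM in WT, 438 against 312 in P2+ and 127 against 106 in KO, but 68.8 against 115 CPM in P2-. The part of this list in the F13a1 level was not tested.

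**Figure D1:**
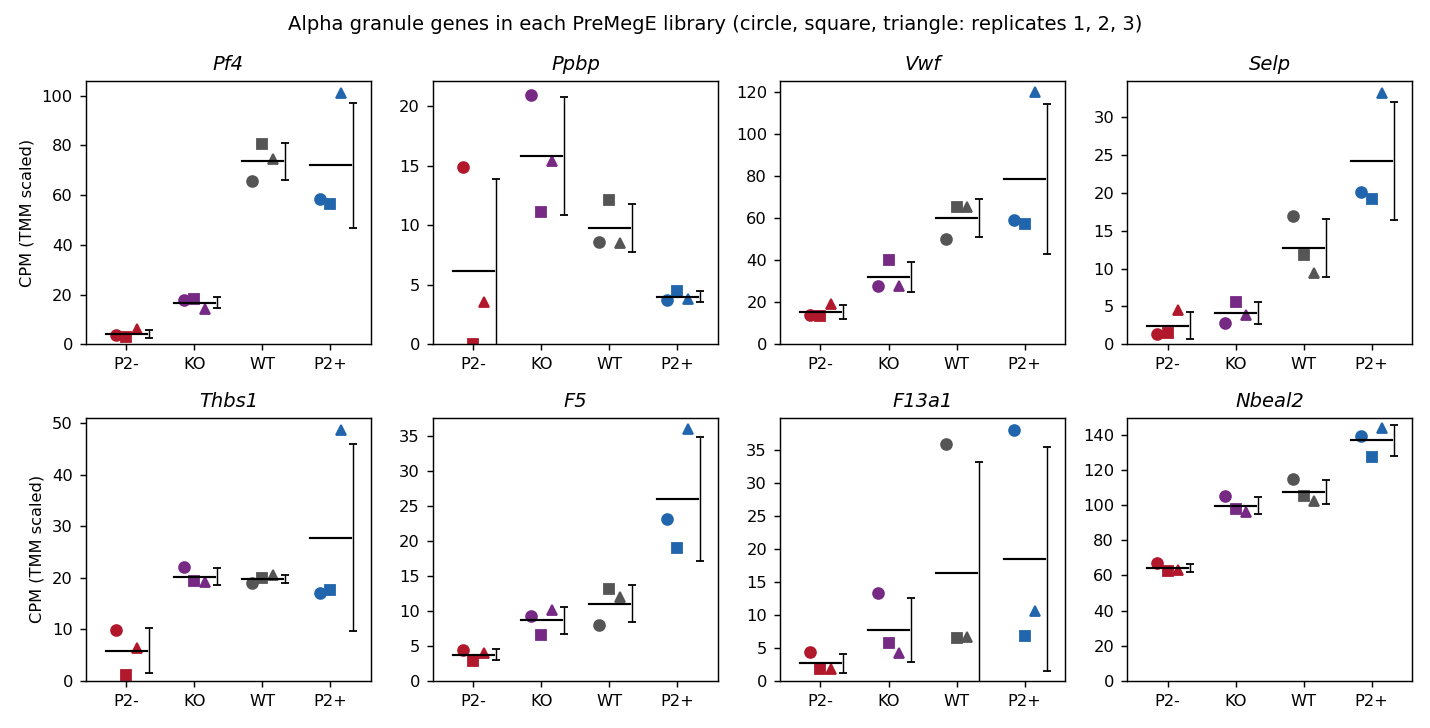
Level of 8 alpha granule genes in each of the 12 PreMegE libraries. The y axis is CPM on a linear scale that starts at 0 and differs between panels, points are libraries (circle, square and triangle for replicates 1, 2 and 3), horizontal lines are group means and bars beside them are SD over 3 libraries, clipped at 0. Pf4, Vwf, Selp, F5 and Nbeal2 in P2- lie below the lowest P2+ library, Ppbp does not, and F13a1 is led by replicate 1 (35.8 CPM in WT and 37.9 in P2+).

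**Figure D2:**
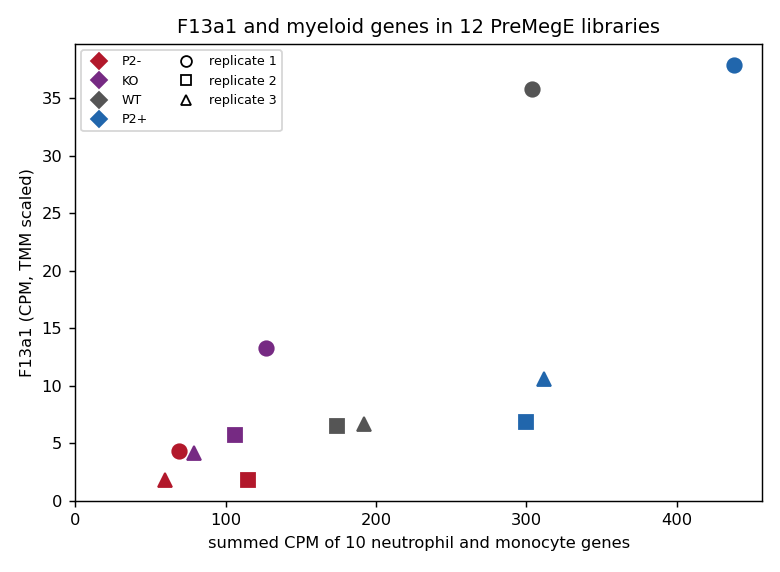
F13a1 (y axis, CPM) against the summed CPM of 10 neutrophil and monocyte genes (x axis) in 12 libraries, with colour for the group and shape for the replicate. Replicate 1 of WT and of P2+, at 304 and 438 CPM on the x axis, stand above the rest, while replicate 1 of P2- has the highest F13a1 of its group at only 68.8 CPM.

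Mmrn1, which encodes multimerin 1, a carrier of factor V in the granule, had 0 counts in all 12 libraries, which allows at most 0.286 CPM in the shallowest, and was not tested. It lies on chromosome 6 of GRCm38 from 60924976 to 60989378.

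Per exonic length, Pf4 was far above the other alpha granule genes in WT and P2+ PreMegEs. Its mean RPKM was 102 ± 10.3 in WT and 99.9 ± 35.0 in P2+ PreMegEs, and the next gene, Nbeal2, reached 11.2 ± 0.672 and 14.3 ± 0.909 (SD, n = 3). In WT, Ppbp followed at 9.01 ± 1.89 RPKM, and Vwf, Thbs1, Selp, F13a1 and F5 had means between 1.49 and 3.76 RPKM. In P2- PreMegEs the mean of Pf4 was 5.89 RPKM and no longer above that of Nbeal2, at 6.72. In KO PreMegEs Pf4 still led at 23.2 ± 3.09 RPKM, followed by Ppbp at 14.6 ± 4.62 and Nbeal2 at 10.4 ± 0.501.

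P2+ and P2- PreMegEs were compared to ask how the genes differed with activity of the proximal Runx1 promoter. Of the 9 genes 8 could be tested, and 7 rose in P2+ PreMegEs, where 12.7% of all 12836 genes tested changed and 9.54% rose. The median log2 fold change of the 8 genes was 2.56, against -0.02 over all genes tested. Pf4 differed by a log2 fold change of 4.06 (SE 0.32, edgeR adjusted p = 2.5e-05), or 16.7-fold. Selp followed at 3.27 (SE 0.44, adjusted p = 0.000511), with F5 and F13a1 both at 2.78 (SE 0.28 and 0.66, adjusted p = 0.000108 and 0.0101 in edgeR). Vwf rose by 2.35 (SE 0.30, adjusted p = 0.000387), Thbs1 by 2.24 (SE 0.62, adjusted p = 0.0203) and Nbeal2 by 1.10 on the log2 scale (SE 0.08, adjusted p = 1.59e-05). Ppbp gave -0.61 (SE 0.96, adjusted p = 0.658). This fit did not use the pairing of P2+ and P2- libraries by replicate number. With the replicate number as a block the 7 genes were still called, and Ppbp gave 0.06 (edgeR adjusted p = 0.954).

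Without replicate 2 of both groups, the libraries with the high immediate early sums, 7 of the 8 genes rose as well. The call for Thbs1 rested on replicate 3: it was lost without replicate 3 of P2- (adjusted p = 0.0626 in edgeR) or of P2+ (log2 fold change 1.56, adjusted p = 0.0815), and that for F13a1 was lost without replicate 3 of both (adjusted p = 0.0704). The F13a1 difference was 1.72 without replicate 1 of P2+, and that of Selp was 4.07 without replicate 3 of P2-. Other lineages moved in the same comparison. Of the lists of 10 genes, the mature megakaryocyte and platelet genes summed to between 756 and 1010 CPM in P2+ and between 242 and 287 CPM in P2- PreMegEs, and the neutrophil and monocyte genes to between 300 and 438 and between 59.5 and 115 CPM. The 12 erythroid genes summed to between 1230 and 1390 CPM in P2+ against 5570 to 6410 in P2- PreMegEs. The 10 lymphoid genes gave 213 to 316 CPM in P2+ against 108 to 143 in P2-, with 4 of 8 tested higher, and of the mast and basophil genes 4 of 5 tested rose and 1 fell, with summed levels of 183 to 309 against 372 to 424 CPM. Il1rl1 (mean 120 CPM in P2+, 369 in P2-, 202 in WT and 402 in KO) makes up the largest part of the mast and basophil sum in each group, and Nkg7 (209, 107, 226 and 98.6 CPM) most of the lymphoid sum. The part of these lists in the fold changes was not tested.

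WT PreMegEs were set against both reporter fractions. These fractions carry 1 reporter allele of Runx1 and were split by hCD4, whereas WT cells have neither feature. The part of the Runx1 alleles and that of the sort cannot be told apart. Compared with WT, 6 alpha granule genes fell in P2- PreMegEs, where 4.68% of 12767 genes changed and 4.1% fell, and the median log2 fold change of the 8 genes was -1.84, against 0.01 over all genes. Pf4 fell by 4.07 on the log2 scale (SE 0.21, edgeR adjusted p = 8.63e-06), Selp by 2.33 (SE 0.41, adjusted p = 0.00431) and Vwf fell by 1.95 (SE 0.16, adjusted p = 5.3e-05). F5 fell by 1.53 (SE 0.26, adjusted p = 0.00331). The F13a1 and Thbs1 differences, -2.60 and -1.73, passed with adjusted p = 0.0243 and 0.0264. Without replicate 3 of P2- the Selp difference was -3.14. The F13a1 call was lost without replicate 1 of WT (-1.29, adjusted p = 0.0837) and without replicate 3 of P2- (adjusted p = 0.0761). The Thbs1 call was lost in DESeq2 (adjusted p = 0.0824), whichever WT library was left out (adjusted p between 0.0728 and 0.0813) and without replicate 3 of P2- (adjusted p = 0.0574). Nbeal2 differed by -0.73 (SE 0.08, adjusted p = 0.000207), which is under 2-fold, and Ppbp by -0.65 (SE 0.81, adjusted p = 0.643). In the same comparison the erythroid genes summed to between 5570 and 6410 CPM in P2- against 3200 to 3690 in WT, the neutrophil and monocyte genes to between 59.5 and 115 against 174 to 304, the endothelial genes to between 100 and 120 against 193 to 209, and the mature megakaryocyte and platelet genes to between 242 and 287 against 477 to 494 CPM. The lymphoid genes gave 108 to 143 against 268 to 298 CPM and the mast and basophil genes 372 to 424 against 226 to 257, although Ms4a2 (9.15 against 17 CPM) and Fcer1a (0 against 3.77) had lower means in P2-, and of the 4 of this list that were tested 1 had an adjusted p under 0.05 by edgeR, at less than 2-fold. The part of these lists in the falls was not tested.

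P2+ PreMegEs differed less from WT, with 1 alpha granule gene higher and 1 lower, where 3.84% of 12941 genes changed. F5 rose by 1.25 (SE 0.25, edgeR adjusted p = 0.00747), although without replicate 3 of P2+ the difference was 0.93 and under 2-fold. Ppbp fell by 1.27 on the log2 scale (SE 0.24, adjusted p = 0.00472). That call was lost in a fit of all 12 libraries, which shares 1 estimate of the spread with the P2- libraries (adjusted p = 0.248). Selp and Nbeal2 gave 0.93 and 0.35 (SE 0.25 and 0.08, adjusted p = 0.0314 and 0.0143), both under 2-fold, and Selp exceeded 2-fold without replicate 1 of WT (1.197) and without replicate 1 (1.05) or 2 (1.07) of P2+. For Pf4 the difference was -0.03 (SE 0.19, adjusted p = 0.946), for Vwf 0.39 (SE 0.25), for Thbs1 0.49 (SE 0.34) and for F13a1 0.16 (SE 0.70). The erythroid genes summed to between 1230 and 1390 CPM in P2+ against 3200 to 3690 in WT, and the mature megakaryocyte and platelet genes to between 756 and 1010 against 477 to 494 CPM. The endothelial genes summed to between 267 and 327 CPM in P2+ against 193 to 209 in WT. Sums overlapped for the neutrophil and monocyte genes (300 to 438 and 174 to 304 CPM) and the lymphoid genes (213 to 316 and 268 to 298). They also overlapped for the mast and basophil genes (183 to 309 and 226 to 257). Of the latter 3 of 5 tested rose, against 2.16% of all genes tested. The part of these lists was not tested. These comparisons share libraries and are not independent of one another.

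KO and WT PreMegEs were compared to ask how the genes differed with loss of RUNX1C in the whole PreMegE population. Here 2 of the 8 alpha granule genes fell, where 3.41% of 12784 genes changed and 2.67% fell. Pf4 fell by 2.14 on the log2 scale (SE 0.12, edgeR adjusted p = 1.45e-09), or 4.41-fold, and Selp fell by 1.63 (SE 0.27, adjusted p = 0.00034), or 3.10-fold. Vwf was lower by less than 2-fold (-0.92, SE 0.14, adjusted p = 0.000177), and passed 2-fold without replicate 1 of WT (-1.04) or replicate 2 of KO (-1.12). Ppbp was higher by 0.70 (SE 0.22, adjusted p = 0.0374), also under 2-fold. Thbs1 gave 0.02 (SE 0.13, adjusted p = 0.932), Nbeal2 -0.12 (SE 0.07, adjusted p = 0.337) and F5 -0.36 (SE 0.22, adjusted p = 0.325).

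F13a1 gave -1.09 (SE 0.51, adjusted p = 0.175 in edgeR), which became 0.22 without replicate 1 of WT. The same fold change passed the test when genes with low counts were kept (adjusted p = 7.87e-08) and without replicate 3 of WT (-1.47, adjusted p = 0.0487). Beside the fall of Pf4 and Selp, the 10 mature megakaryocyte and platelet genes summed to between 483 and 509 CPM in KO and between 477 and 494 CPM in WT PreMegEs, a sum in which Gp5 (246 CPM in KO, 187 in WT) and Treml1 (40.1, 23.2) were higher and Itga2b (115, 156) and Gp1bb (11.2, 28.5) lower. The 10 neutrophil and monocyte genes summed to between 79.2 and 127 CPM in KO and between 174 and 304 CPM in WT, and the endothelial genes to between 136 and 156 and between 193 and 209 CPM. The 12 erythroid genes summed to between 5410 and 6100 CPM in KO and between 3200 and 3690 in WT, and of 10 tested 7 were higher by adjusted p alone, where 14.9% of all genes passed in either direction, and 1 by the 2-fold call. The 10 lymphoid genes gave 139 to 150 CPM in KO against 268 to 298 in WT, and the 8 mast and basophil genes 420 to 507 against 226 to 257. The part of these lists in the falls was not tested.

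KO PreMegEs were also set against the reporter fractions, which differ from them both in the Runx1 alleles and in the sort, and these cannot be told apart. Against P2-, 2 alpha granule genes were higher, where 0.508% of 12588 genes changed and 0.437% rose. They were Pf4, by 1.95 (SE 0.25, edgeR adjusted p = 0.00479), and Vwf, by 1.04 (SE 0.19, adjusted p = 0.024). The Vwf call was lost with a replicate block (adjusted p = 0.0624), in the fit of all 12 libraries (adjusted p = 0.0541) and whichever KO library, or replicate 1 or 2 of P2-, was left out. Thbs1 and F5, at 1.76 and 1.18, missed the threshold (adjusted p = 0.0952 and 0.0522) but passed it without replicate 2 of P2- (1.31 and 1.02, adjusted p = 0.000576 and 0.034), the library in which Thbs1 was at 1.24 CPM and the immediate early sum was high. The mature megakaryocyte and platelet genes summed to between 483 and 509 CPM in KO against 242 to 287 in P2-, and the endothelial genes to between 136 and 156 against 100 to 120, whereas the erythroid sums (5410 to 6100 and 5570 to 6410 CPM) and the neutrophil and monocyte sums (79.2 to 127 and 59.5 to 115) overlapped, as did those of the lymphoid (139 to 150 and 108 to 143) and the mast and basophil genes (420 to 507 and 372 to 424). Their part was not tested.

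Against P2+, 4 alpha granule genes were lower in KO PreMegEs and 1 was higher, where 11.4% of 12807 genes changed and 8.32% fell. Selp fell by 2.56 on the log2 scale (SE 0.29, edgeR adjusted p = 6.02e-05), Pf4 fell by 2.11 (SE 0.22, adjusted p = 3.42e-05), F5 fell by 1.60 (SE 0.25, adjusted p = 0.000599) and Vwf fell by 1.31 (SE 0.26, adjusted p = 0.00285). Without replicate 3 of P2+ the Vwf difference was -0.88 and under 2-fold. Ppbp rose by 1.97 (SE 0.25, adjusted p = 0.000159), and all KO libraries lay above all P2+ libraries. F13a1, at -1.25 (SE 0.59, adjusted p = 0.118), passed the threshold with a replicate block (-1.09, adjusted p = 0.00997), without replicate 2 of P2+ (-1.66, adjusted p = 0.00682) and with no filter on low counts (adjusted p = 0.0155), and was -0.18 without replicate 1 of P2+. In KO against P2+ PreMegEs the erythroid genes summed to between 5410 and 6100 CPM against 1230 to 1390, the mature megakaryocyte and platelet genes to between 483 and 509 against 756 to 1010, the neutrophil and monocyte genes to between 79.2 and 127 against 300 to 438 and the endothelial genes to between 136 and 156 against 267 to 327 CPM. The lymphoid genes gave 139 to 150 CPM against 213 to 316 and the mast and basophil genes 420 to 507 against 183 to 309. Whether these lists bear on the differences was not tested.

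**Figure D3:**
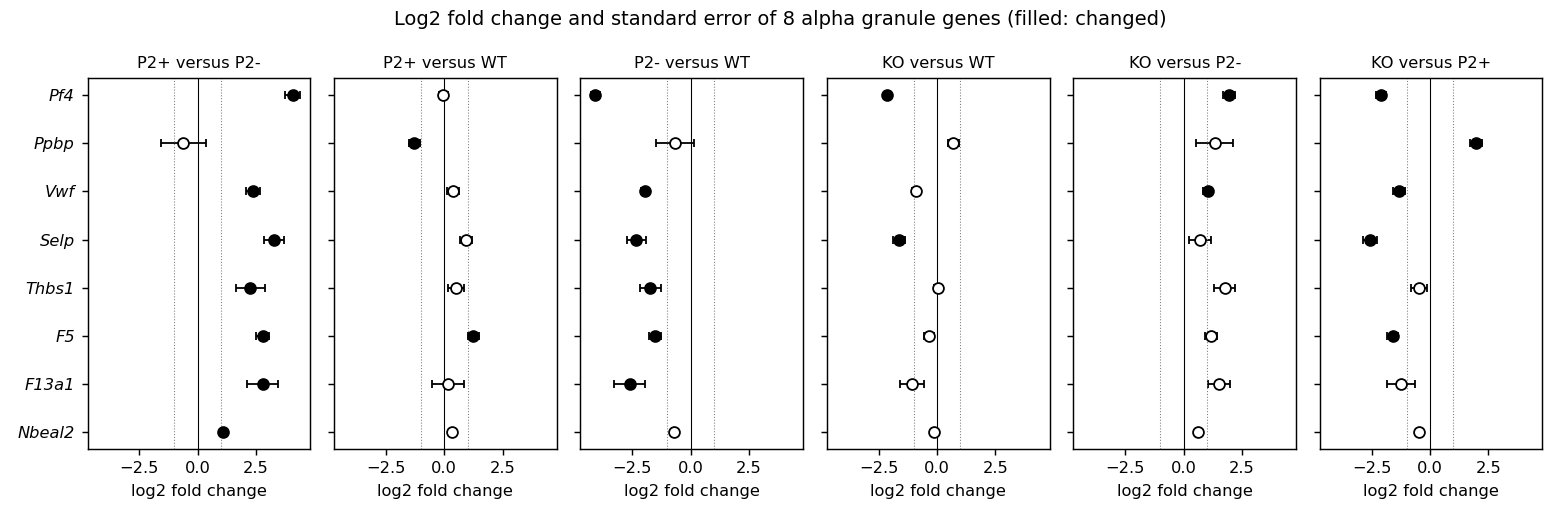
Log2 fold change (x axis) of 8 alpha granule genes in 6 comparisons, with bars for the standard error, filled points for changed genes and dotted lines at a 2-fold change. Between P2+ and P2- the 7 filled points lie between 1.10 (Nbeal2) and 4.06 (Pf4), and between KO and WT only Pf4 at -2.14 and Selp at -1.63 are filled.

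The place of each WT and KO level between the P2- and P2+ means differed by gene. As a description, with 0% at the P2- mean and 100% at the P2+ mean in CPM, WT lay at 102% ± 11 for Pf4, 71.0% ± 14.2 for Vwf, 59.6% ± 8.85 for Nbeal2, 47.2% ± 17.9 for Selp and 32.6% ± 11.9 for F5 (SD, n = 3). KO lay at 18.4% ± 3.29 for Pf4, 26.3% ± 11.3 for Vwf, 48.8% ± 6.60 for Nbeal2, 7.64% ± 6.63 for Selp and 21.9% ± 8.58 for F5. These percentages are not shares of cells, since WT and KO also differ from the reporter fractions in the Runx1 alleles. In the paper most reporter PreMegEs were P2-, so unsplit reporter cells need not lie midway on this scale. For Thbs1, WT and KO stood together at 63.7% ± 3.87 and 65.6% ± 7.92. Total Runx1, counted over both promoters, also stood together at 37.9% ± 3.82 in WT and 35.6% ± 4.94 in KO, with mean levels of 370 ± 16.1 and 360 ± 20.9 CPM, so that counts per gene do not check the KO label.

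The neighbours of both gene pairs were followed for comparison. None of Cxcl1, Cxcl2, Cxcl3, Cxcl5 and Cxcl15, the chemokine genes around Pf4 and Ppbp, had enough counts to be tested in any comparison. Cxcl2 had 113 counts over 12 libraries, up to 71 of them in 1 library, and Cxcl15 had 0. Around Selp and F5, Sele, of endothelial E-selectin, had 0 counts throughout, and Slc19a2, Nme7 and Blzf1 did not reach a 2-fold difference between P2+ and P2-, with -0.48, -0.41 and 0.02.

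Other genes of the granule were counted from lists written from general knowledge. Of 40 other cargo genes 19 could be tested between P2+ and P2- PreMegEs, 9 rose and 2 fell, and the median log2 fold change was 1.28. Over all genes tested 9.54% rose and 3.13% fell, with a median of -0.02, and the counts of the lists below are to be read against these. Timp3, an inhibitor of metalloproteinases, rose by 3.63 (SE 0.53), Pdgfb, a growth factor, by 3.58 (SE 0.71), Serpine2, an inhibitor of serine proteases, by 3.12 (SE 0.40) and Pros1, the anticoagulant protein S, by 2.93 (SE 0.35), with edgeR adjusted p between 0.000259 and 0.00417. The genes that fell were Aplp2 (-1.88) and F8 (-1.15). The fibrinogen genes Fga, Fgb and Fgg had 0 counts.

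Of 16 genes of the granule and platelet membrane 14 were tested, 8 rose and 1 fell, with a median of 1.21. The largest were Gp1bb, a subunit of the von Willebrand factor receptor, at 3.94 (SE 0.37), and Itgb3, the beta subunit of the fibrinogen receptor, at 3.59 (SE 0.33), followed by Treml1 at 2.52 (SE 0.23) and Itga2b at 2.48 (SE 0.17), with edgeR adjusted p between 1.21e-05 and 7.32e-05. Gp1bb shares exons with Sept5 on the same strand, so its counts are uncertain. Cd36 fell by 1.49 on the log2 scale, at under 2 CPM in both groups.

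Of the genes of granule formation and release 4 were higher and 1 was lower of 24 tested, with a median of 0.16. Rab27b, Ehd3 and Rab27a rose by 2.12, 1.84 and 1.46, and Rab4a fell by 2.17 on the log2 scale. Among 20 genes of dense granules, the other secretory granules of platelets, 2 rose and 1 fell with a median of -0.02, near the shares over all genes. They were Slc35d3, needed to form dense granules, at 3.87 (SE 0.30), Rab32 at 1.45 (SE 0.12) and Slc17a9, the nucleotide transporter, at -1.05 (SE 0.23), with edgeR adjusted p between 2.29e-05 and 0.00728.

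Between KO and WT PreMegEs 2.67% of all genes tested fell and 0.743% rose. Of the cargo genes 18 were tested, Serpine2 and Timp3 fell (-2.05, SE 0.20, edgeR adjusted p = 1.57e-06, and -2.15, SE 0.18, adjusted p = 2.88e-07), and Ecm1, an extracellular matrix protein, rose by 1.09 (SE 0.19). Of 14 membrane genes only Gp1bb fell (-1.35, SE 0.14, adjusted p = 2.66e-06 in edgeR). By less than 2-fold, Itgb3 (-0.91), Cd9 (-0.80), Pecam1 (-0.71), Itga2b (-0.45) and Slc2a3 (-0.23) were lower in KO and Treml1 (0.79) and Gp5 (0.39) were higher, with edgeR adjusted p between 2.19e-06 and 0.0465. Of 24 genes of formation and release Ehd3 fell, at -1.49 (SE 0.14), and of 20 dense granule genes 1 was higher and 2 were lower with an adjusted p under 0.05, each by less than 2-fold, where 14.9% of all genes had such a p. Medians of these lists lay between -0.24 and 0.01, against 0 over all genes.

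**Figure D4:**
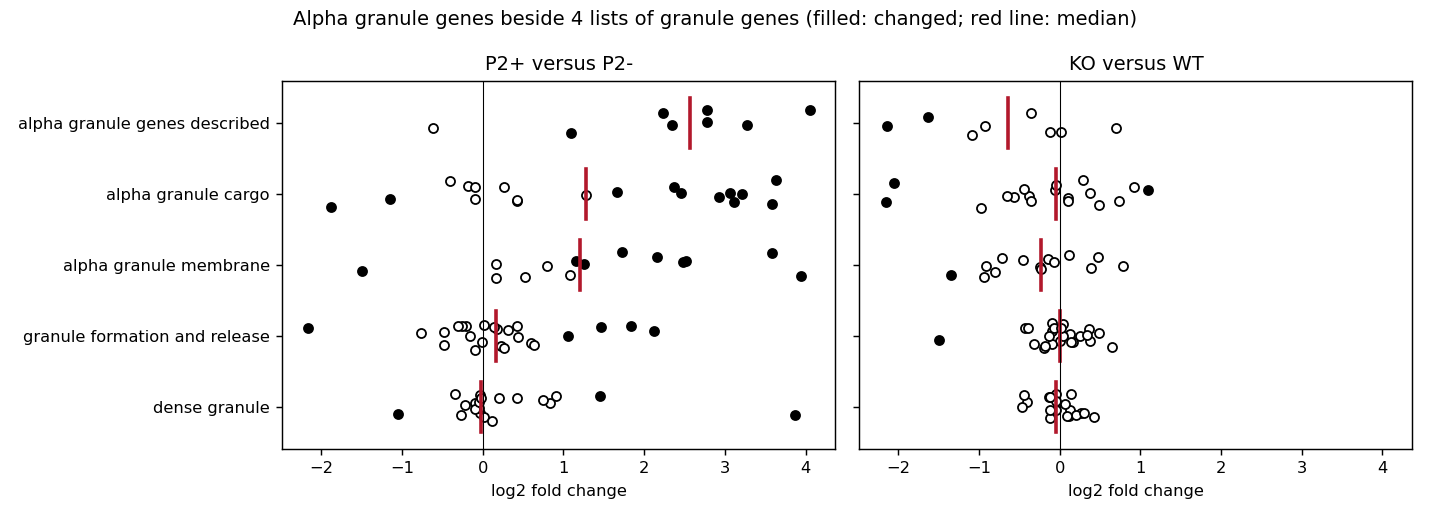
Log2 fold change (x axis) of the alpha granule genes described and of 4 lists of other granule genes, between P2+ and P2- (left) and between KO and WT (right). Each point is a gene tested, filled where changed, its height within a row is arbitrary, and the red line is the median of the row. Between P2+ and P2- the medians are 2.56, 1.28, 1.21, 0.16 and -0.02 from top to bottom, and between KO and WT filled points are few.

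The genes most like Pf4, by Pearson correlation of log2 CPM over the 12 libraries among 9522 genes of at least 10 CPM, were Dhrs3 (0.988), Gnaz (0.983), Anxa5 (0.974), Pde10a (0.973) and Gp1bb (0.972). For Vwf they were Adamtsl5 (0.980), Gnaz (0.979), Pde10a (0.975), Trpc6 (0.974) and F2rl2 (0.968). Dhrs3, for example, had a mean of 19.5 ± 2.30 CPM in WT, 2.12 ± 0.663 in P2-, 16.3 ± 0.495 in P2+ and 5.15 ± 0.526 in KO PreMegEs (SD, n = 3), the same order as Pf4. For Thbs1 the first genes were Zfp687 (0.961), Ptpn18, Cds2, AI467606 and Mrvi1 (0.925), with rank correlations of only 0.559 to 0.664. The libraries share their groups, so these values describe likeness of pattern and carry no test.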

How the data were processed

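Poly(A) RNA of sorted PreMegEs was sequenced in 12 libraries. The deposited values are raw counts per gene, which the authors made with Bowtie2 on GRCm38 and featureCounts on Ensembl genes. Whether strand was used in counting, and how multi-mapping reads were treated, is not given in the sources used here, so genes with overlapping neighbours are less certain. These include Selp, F5, Thbs1 and F13a1, whose exons overlap genes on the other strand, and Nbeal2, which overlaps a microRNA.

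From the counts, 6 pairs of groups were tested in edgeR 4.0.16 (R 4.3.3). A gene needed 1 CPM or more in 3 or more of the 6 libraries, scaling was by TMM, and the quasi-likelihood test, which is two-sided, had the group as its only term. A gene changed at an adjusted p under 0.05 and at least 2-fold. RPKM used exonic lengths over all transcripts of GENCODE on GRCm38. The steps were tested on simulated data. Alternatives were RLE scaling, DESeq2 1.42.0, the exact test of edgeR, other filters, adjusted p alone, glmTreat, a fit of all 12 libraries, a replicate block and each library left out; leaving out a replicate of both groups was added after seeing the data.

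Groups came from the labels. Libraries of 3 mice were treated as replicates. P2+ and P2- libraries of the same number deviated together, with correlations over 12836 genes of 0.402, 0.59 and 0.432, so the numbers pair them; in no other comparison did every pair exceed 0.1. The genes and lists were chosen with earlier results of these data known. Named beyond the 9 genes and Runx1 are, from each list of granule genes, up to 4 changed genes of at least 10 CPM with the largest change, the neighbouring genes, of which some are not reported here, and the 5 genes most alike; Aplp2, F8, Cd36, Fga, Fgb, Fgg, Gp5, Ecm1, Cd9, Pecam1, Slc2a3, Tie1, Esam, Tek, Il1rl1, Nkg7, Ms4a2 and Fcer1a were named after their values were seen. Protein sequences were not used here.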

Additional observations from a re-analysis of the deposited data

How the results depend on the processing

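The rises of Pf4, Vwf, Selp and F5 between P2+ and P2- and the fall of Pf4 between KO and WT kept their direction and call under all alternatives tried. The block by replicate number left all 7 calls between P2+ and P2- in place and turned Ppbp from -0.61 to 0.058 (adjusted p = 0.954 in edgeR). The pairing also cost the Vwf call between KO and P2- (adjusted p = 0.0624) and gave calls for F13a1 between KO and P2- (1.48, adjusted p = 0.048) and between KO and P2+, where the numbers do not pair the libraries.

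By adjusted p alone the genes changed were 4762 between P2+ and P2-, 2138 between P2+ and WT, 2101 between P2- and WT, 1910 between KO and WT, 203 between KO and P2- and 4748 between KO and P2+, with 4 alpha granule genes in P2+ against WT and 4 in KO against WT. Tested by glmTreat against a 2-fold change, a stricter null by construction, these counts were 776, 80, 90, 53, 1 and 464 genes, with 4, 0, 2, 1, 0 and 3 alpha granule genes. With at least 5 CPM required, 390 genes changed between P2- and WT and 232 between KO and WT, with fewer genes tested. Between KO and P2-, DESeq2 gave 108 genes (4 of them alpha granule genes), the exact test 139 (4) and no filter 158 (5), against 64 (2) as reported; the cause was not tested. The fit of all 12 libraries left 1 alpha granule gene between P2+ and WT.

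With single libraries, or a replicate of both groups, left out, between KO and P2- the alpha granule genes changed ranged from 1 (without any KO library) to 3 and all genes from 23 (without replicate 2 of KO) to 97 (without replicate 2 of P2-); between P2+ and WT 1 (without replicate 3 of P2+) to 3 alpha granule genes changed. Values that turned sign were small or spread widely: Ppbp between P2+ and P2- ranged from -1.26 to 1.18 (1.117 without replicate 1 of P2- and -1.18 without replicate 2 of P2-), between P2+ and WT Pf4 from -0.36 to 0.13, Vwf from -0.051 to 0.58, Thbs1 from -0.19 to 0.75 and F13a1 from -0.91 to 1.48, between KO and WT Thbs1 from -0.045 to 0.06 and F13a1 from -1.73 to 0.22, and between KO and P2+ Thbs1 from -0.73 to 0.21. With lengths of the longest transcript, 3 of 8 genes kept their rank of RPKM in P2+. By rank correlation 1 of the 5 genes most like Pf4, 1 of those like Vwf and 0 of those like Thbs1 stayed among the first 5. With 3 libraries a group, and at levels near 0.286 CPM, the limit of the shallowest library, depth sets what can be seen.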
